A study of Mus musculus with 2 samples.

Results

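The genes described are 10 genes of the disease-associated program of microglia other than Spp1: Cst7, Lpl, Itgax, Clec7a, Cd9, Cd63, Cd52, Ch25h, Capg and Lyz2. They were taken as a named list, of the 31053 genes in each table, and 9 of the 10 had a row in both tables. Clec7a, which encodes the beta-glucan receptor dectin-1, had none and was not analysed here. The data are 2 libraries of single cells from CD45-positive sorts (CD45 is the common leukocyte antigen, present on microglia at a low level) of the retinas of perfused C57BL/6 mice aged 8 to 10 months. One library is labelled wildtype and the other is labelled as an Igfbpl1 knockout (Igfbpl1-/-), and the design text speaks of 10 mice of each genotype, matched for sex. The labels do not say how many mice went into a library or which part of Igfbpl1 was removed, and no label ties a cell to a mouse.

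Microglia are the resident macrophages of the brain and retina. Near amyloid, dying neurons or degenerating photoreceptors, a part of them lowers the genes of the resting state, such as P2ry12, and raises a set of genes for lysosomes, lipid handling and adhesion, in a change that depends in part on the lipid receptor Trem2. The listed genes are commonly used as markers of that state, although several of them are also expressed by resting microglia, by macrophages of the vessels and meninges, and by blood monocytes.

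The library labelled wildtype held 11020717 unique molecular identifiers (UMIs, each standing for 1 captured RNA molecule) in 2735 barcodes, and the library labelled knockout held 7945713 in 1785. The number of cells kept was 2695 and 1761, with a median of 3910 and 4286 UMIs, and 1 barcode occurred in both libraries. Igfbpl1 itself went against the labels: it had 2 UMIs in the library labelled wildtype (0.181 CPM, the UMIs of a gene per 1000000 UMIs of the cells) and 29 UMIs in 27 cells of the library labelled knockout (3.65 CPM), so the libraries are named by their labels throughout. Where the removed part of the gene lies relative to the counted end of the transcript is not given in the sources used here.

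Cells were sorted into classes by summed UMIs of marker genes that are not among the 10. Microglia held at least 3 UMIs of P2ry12, P2ry13, Tmem119, Siglech, Gpr34 and Sall1 and at most 1 UMI of each list for other leukocytes, which left 2304 cells in the library labelled wildtype and 1417 in the library labelled knockout. Border macrophages, the macrophages of vessels and meninges, held at least 3 UMIs of Mrc1, Pf4, Cbr2, Cd163, Lyve1 and Folr2 and numbered 22 and 15. Monocytes held at least 3 UMIs of Plac8, Ccr2, Ly6c2, Chil3 and S100a4 and numbered 10 and 37. P2ry12 was found in 94.6% and 91.8% of the microglia, and Pf4 in all border macrophages of both libraries. Ms4a7, a macrophage gene that the gate did not use, was found in 100% and 93.3% of the border macrophages and in 1.30% and 3.03% of the microglia. Plac8 was found in 100% and 94.6% of the monocytes, whereas Ccr2 was found in 50% and 43.2% and Ly6c2 in 40% and 24.3% of them.

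Sequence upstream of 4 of the genes is shown because they stand for both kinds of microglial pattern described below: Cst7 and Itgax were detected in few microglia, and Lyz2 and Cd9 in most. Each line gives the bases before the transcription start, 5′ to 3′ on the strand of the gene, from RefSeq on GRCm38.p6, without bases that GENCODE places inside the transcript. Capitals mark GGAAGT (a core bound by factors of the ETS family, which includes PU.1), TGANTCA (the AP-1 element) and GGGCGG (the GC box), on either strand, and none of the marked matches overlap.
Cst7, chr2:150570165-150570414, plus strand: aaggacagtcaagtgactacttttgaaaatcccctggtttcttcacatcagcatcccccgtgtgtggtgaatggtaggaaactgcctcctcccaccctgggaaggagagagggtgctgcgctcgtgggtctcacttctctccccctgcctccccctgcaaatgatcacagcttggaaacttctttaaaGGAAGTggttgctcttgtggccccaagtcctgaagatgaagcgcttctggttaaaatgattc
Itgax, chr7:128129300-128129546, plus strand: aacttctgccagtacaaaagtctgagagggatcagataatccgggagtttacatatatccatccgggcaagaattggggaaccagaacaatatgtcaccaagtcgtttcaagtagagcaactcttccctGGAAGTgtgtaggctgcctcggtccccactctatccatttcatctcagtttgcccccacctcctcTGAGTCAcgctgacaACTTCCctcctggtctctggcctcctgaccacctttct
Lyz2, chr10:117282322-117282522, minus strand: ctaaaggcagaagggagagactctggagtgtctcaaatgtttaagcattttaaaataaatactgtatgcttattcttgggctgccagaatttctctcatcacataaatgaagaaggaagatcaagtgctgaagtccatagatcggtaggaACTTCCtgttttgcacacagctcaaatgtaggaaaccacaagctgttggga
Cd9, chr6:125494792-125495010, minus strand: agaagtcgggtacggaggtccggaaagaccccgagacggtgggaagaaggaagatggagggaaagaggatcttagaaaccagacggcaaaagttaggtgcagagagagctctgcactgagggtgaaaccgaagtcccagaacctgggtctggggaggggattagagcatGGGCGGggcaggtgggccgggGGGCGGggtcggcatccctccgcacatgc
On GRCm38 GENCODE places Cst7 at chr2:150570415-150578944, Itgax at chr7:128129547-128150657, Lyz2 at chr10:117277331-117282321 and Cd9 at chr6:125460266-125494791. Of the others, Cd63 lies at chr10:128900989-128912822, Capg at chr6:72544391-72562983, Ch25h at chr19:34473778-34475164, Lpl at chr8:68880491-68907448 and Cd52 at chr4:134082448-134095082. The files count reads per gene and do not say which exon they fell in.
Of the 10 genes, 8 had an entry in the RefSeq table, and Lpl and Cd52 had none. In the 250 bases before the start, GGAAGT was found in 5 of the 8, namely Cst7, Capg, Itgax, Lyz2 and Cd63, and in 19.7% of 32841 promoter windows of the same length. TGANTCA was found upstream of Itgax and in 6.75% of the windows, GGGCGG upstream of Cd9 in 2 places and in 32.7% of the windows, and TGACGTCA (the cyclic AMP response element) upstream of Ch25h and in 1.55%. CACGTG (the E-box) was found upstream of none of the 8 and in 6.02% of the windows. A match is a description of the letters and not a bound site, and the motifs were chosen with these sequences in view.

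The 9 measured genes split into those found in most retinal microglia and those found in few. To remove the effect of depth, each microglial cell was thinned to 2000 UMIs, which left out 351 and 234 shallower cells, and a gene was called constitutive when at least 50% of the cells held a UMI in both libraries and restricted when fewer than 10% did. Cd9, Cd52, Cd63 and Lyz2 were constitutive, 4 of 9, where 5.46% of the 5827 genes at 20 CPM or more met that limit. Cst7, Lpl, Itgax and Ch25h were restricted, also 4 of 9, where 47.5% of those genes met that limit, and Ch25h in both libraries and Itgax in the library labelled wildtype lay below that CPM minimum. The restricted share of the members was thus close to that of all genes. Lpl was not restricted without thinning, when 12.5% and 14.2% of microglia held a UMI, nor with limits of 60% and 5%. Capg lay between the limits.

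Cd9, a tetraspanin of the cell surface, was the most abundant of the 9 in microglia. It stood at 3244 CPM in the library labelled wildtype and 3128 CPM in the library labelled knockout, and 98.9% and 98.0% of the thinned microglia held a UMI. Without thinning the shares were 98.6% and 97.1%. Retinal neurons and glia held Cd9 as well, at 1545 and 1444 CPM, below the microglial level. The part of RNA from lysed cells in the microglial share was not tested.

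Cd52, a small glycoprotein anchored to the surface of leukocytes by lipid, stood at 948 and 964 CPM in microglia and was found in 76.5% and 79.5% of thinned cells. In retinal neurons and glia it had 0 and 2 UMIs. That class was gated to hold at most 2 UMIs of the microglia list. It held at most 1 UMI of each list for border macrophages, monocytes and lymphocytes. Cells with much leukocyte RNA were thus left out in advance, so these counts cannot show how much RNA from lysed cells reached others. The median depth of the neurons and glia was 4286 and 5621.5 UMIs, against 4012 and 4390 in microglia.

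Cd63, a tetraspanin of late endosomes and lysosomes, stood at 583 and 714 CPM and was found in 57.7% and 60.1% of thinned microglia. Neurons and glia of the retina had 579 and 754 CPM of it, about the microglial level. Lyz2, which encodes the lysozyme of macrophages and granulocytes, stood at 711 and 935 CPM and was found in 59.1% and 61.6% of thinned microglia. Both lay nearer to the limit of 50% than Cd9 and Cd52 did, and after thinning to 1000 UMIs their shares were 39.6% and 41.0% for Cd63 and 41.5% and 43.9% for Lyz2. Neurons and glia had 6 and 1 UMIs of Lyz2. The transcript of Lyz2 is 96.0% identical to that of its neighbour Lyz1 over 1262 aligned bases, and Lyz1 had 10 and 8 UMIs in all kept cells, so reads shared by the copies could move between them.

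Capg, which caps the fast-growing ends of actin filaments, stood at 151 and 157.5 CPM, and 23.0% and 23.1% of thinned microglia held a UMI. That share was close to the 25.01% and 25.3% that its mean would give if every cell had the same level. It was 0.919 and 0.912 of the expected share, against a median of 0.980 and 0.975 over the 5827 genes. Capg was therefore spread over many microglia at a low level, but less evenly than the median gene. Neurons and glia had 0 UMIs of it in both libraries.

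The restricted genes differed in how they were spread. Cst7, which encodes cystatin F, an inhibitor of lysosomal cysteine proteases, stood at 52.7 and 51.3 CPM in microglia. Lpl, the lipase that releases fatty acids from lipoproteins, stood at 49.7 and 55.0 CPM, about the same level. Yet 4.51% and 3.72% of thinned microglia held a Cst7 UMI and 7.68% and 8.11% held an Lpl UMI. The Cst7 share was 0.643 and 0.613 of that expected from its mean, against 0.854 and 0.848 for Lpl and a median of 0.980 and 0.975 over the 5827 genes.

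Few microglia carried most of the Cst7 RNA. In the library labelled wildtype 14 of the 2304 cells held at least 50% of the 510 Cst7 UMIs, and 1 cell alone held 111. In the library labelled knockout 6 of 1417 cells held at least 50% of the 330 UMIs, and the highest cell held 55. Cells with at least 5 Cst7 UMIs numbered 22 and 14 and held 58.4% and 69.1% of the total. The ratio of variance to mean of the thinned counts (the Fano factor) was 3.45 and 2.64 for Cst7 and 1.48 and 1.47 for Lpl, with a median of 1.04 and 1.06 over all genes.

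**Figure D1:**
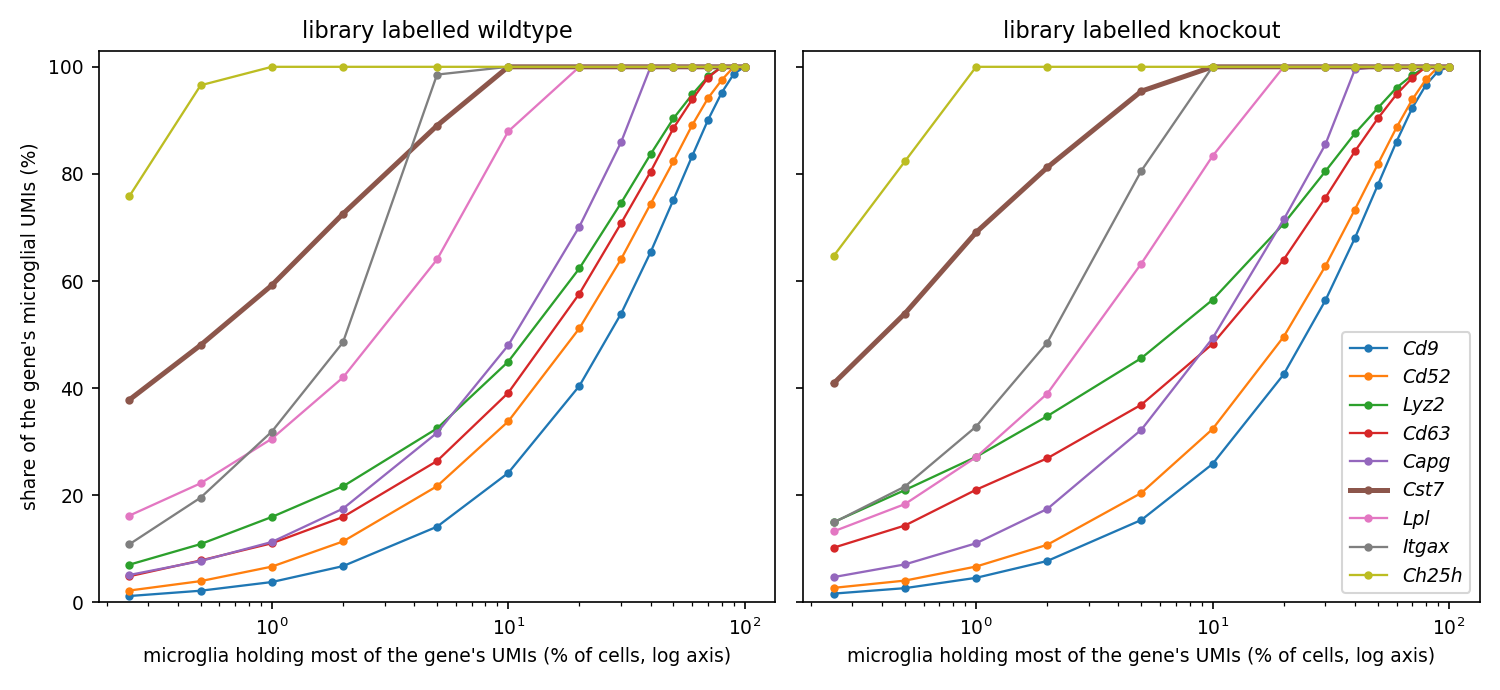
Share of each gene's microglial UMIs (vertical axis, percent) held by the microglia with most of them (horizontal axis, percent of cells, log axis), for each library. Cst7 (thick line) lies above Lpl in both libraries although their levels were alike, and Cd9 and Cd52 lie lowest.

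Itgax, the alpha subunit of the integrin CD11c/CD18, stood at 14.3 and 20.8 CPM, and 2.15% and 3.21% of thinned microglia held a UMI. These shares were 0.965 and 0.966 of the expected ones, and no cell of the library labelled wildtype held more than 4 UMIs. Ch25h, the enzyme that makes 25-hydroxycholesterol and that interferon induces, was the rarest, with 29 UMIs in 13 microglia (2.999 CPM) and 17 UMIs in 10 microglia (2.64 CPM). Of the 29 UMIs, 13 were in 1 cell. Cst7, Lpl, Itgax and Ch25h all had 0 UMIs in the 61 and 46 retinal neurons and glia, which allows a share of cells with a UMI of up to 4.92% and 6.52% (3 cells of the total, counting error only).

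**Figure D2:**
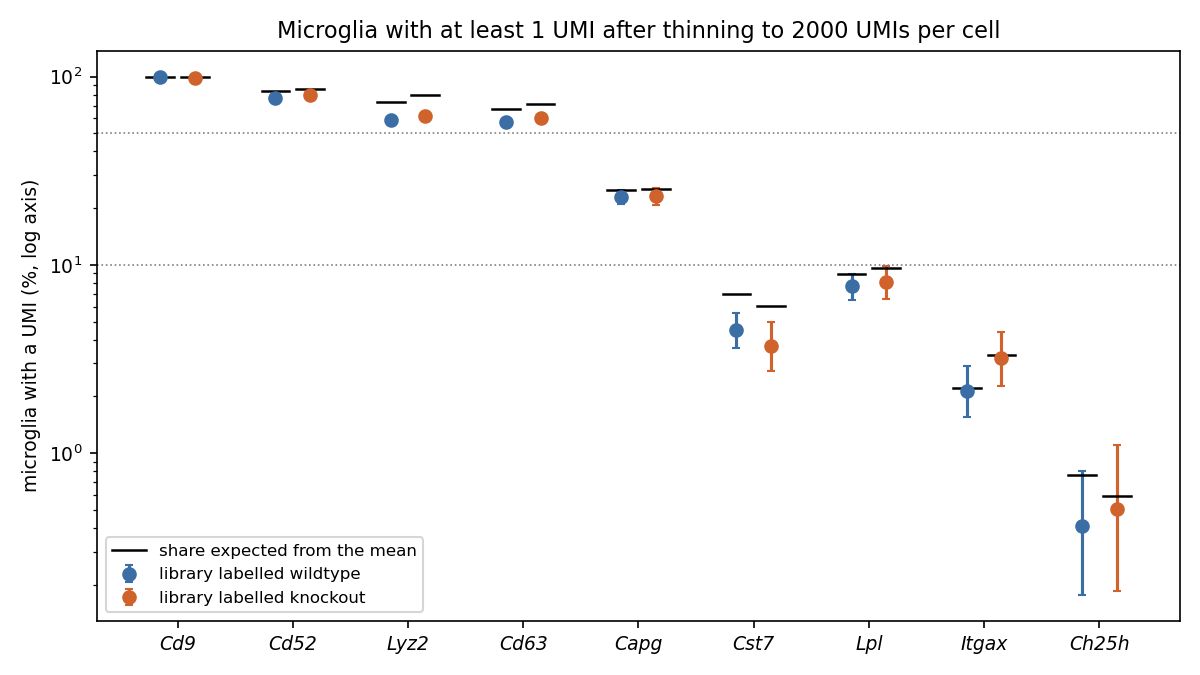
Share of microglia with at least 1 UMI of each gene after thinning to 2000 UMIs (points, with exact 95% binomial intervals, log axis), for both libraries, and the share expected from the mean if all cells were alike (bars). Cd9, Cd52, Lyz2 and Cd63 lie above the upper dotted line at 50%, and Lpl, Cst7, Itgax and Ch25h lie below the lower one at 10%.

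Microglia that passed a count limit for the Spp1 program (at least 5 UMIs of Spp1, Gpnmb, Fabp5 and Lgals3 together) held much of the Cst7 RNA. There were 17 such cells in the library labelled wildtype and 23 in the library labelled knockout, with a median of 8608 and 9579 UMIs against 4005 and 4366.5 in the others. Cst7 stood at 1463 and 771 CPM in them and at 32.6 and 16.9 CPM in the other microglia, 44.8 and 45.5 times higher. These few cells held 39.0% and 68.5% of the Cst7 UMIs of all microglia. Without the 1 cell of each library with most Cst7 the ratios were 22.2 and 36.2.

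The ratios of the other genes were smaller. Cd63 was 5.87 and 6.34 times higher, Lyz2 5.92 and 7.56 times, Itgax 6.07 and 6.04 times and Capg 4.11 and 2.14 times. The 95% counting intervals of these 4 genes lay above 1 in both libraries. Lpl was 8.49 and 3.29 times higher, but 30 of its 52 UMIs in the library labelled wildtype were in 1 cell, and without that cell the ratio was 3.88. Cd52 was 1.53 and 1.39 times higher. Ch25h had 2 and 7 UMIs in these cells, a ratio of 5.19 (0.598 to 20.7) and 14.7 (4.74 to 42.7), and 4 of the 7 were in 1 cell. Cd9 stood at 3395 against 3242 CPM and at 3048 against 3132 CPM, a ratio of 1.05 (0.953 to 1.15) and 0.973 (0.909 to 1.04), so both intervals held 1.

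The cells past the Spp1 limit were not alike in their macrophage markers. The gate genes of microglia summed to 1492 and 1497 CPM in them, against 6278 and 6644 CPM in the other microglia. In the library labelled wildtype 3 of the 17 held at least 2 UMIs of the border list with Ms4a7 added, and in the library labelled knockout 11 of the 23 did. Those 11 cells held 166 of the 330 microglial Cst7 UMIs of their library, while the 3 cells held 3 of 510. Among the cells that held fewer, 14 and 12 in number, Cst7 was 55.5 and 30.9 times higher than in the other microglia under the same limit. Cd63 was then 6.05 and 5.12 times higher and Lyz2 7.19 and 3.75 times. The ratios of the Spp1 cells therefore stayed above 1 for these 3 genes without the Ms4a7 cells, but single cells held much of the RNA. In the 14 cells the highest cell of each gene held 111 of 196 Cst7, 70 of 350 Cd63 and 102 of 474 Lyz2 UMIs. In the 12 cells it held 24 of 60, 91 of 323 and 134 of 278. The part of these single cells in the ratios, and that of macrophages in the microglial gate, was not tested.

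The 22 and 14 microglia with at least 5 Cst7 UMIs were described in turn. Fabp5, a fatty acid binding protein, stood at 951 and 2988 CPM in them against 9.98 and 76.7 CPM in the others, and Gpnmb, a lysosomal glycoprotein, at 163 and 1149 against 0.946 and 16.9 CPM. P2ry12, the purine receptor of resting microglia, was 0.414 and 0.179 times its level in the others. Cd9 was 1.04 and 0.980 times. These values are not a separate view. Fabp5 and Gpnmb belong to the Spp1 limit, and the cells past that limit held 39.0% and 68.5% of the microglial Cst7 UMIs. In the library labelled knockout 1 microglial cell held 397 of the 970 Fabp5 UMIs. There, the 11 Spp1 cells with at least 2 UMIs of the border list with Ms4a7 held 166 of the 330 Cst7 UMIs. The part of these cells and of depth in the ratios was not tested.

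Several of the same genes differed in other states of microglia too. In the 17 and 15 cells with at least 10 UMIs of the MHC class II genes H2-Aa, H2-Ab1 and Cd74, Lyz2 was 4.13 and 2.57 times and Itgax 5.08 and 3.77 times the level of the other microglia. Cd63 was 1.82 and 2.36 times and Cd52 1.54 and 1.60 times higher there, and Cd9 was lower, at 0.690 and 0.361 times. In the 119 and 76 cells with at least 5 UMIs of the interferon-induced genes Ifit1, Ifit2, Ifit3, Rsad2 and Isg15, Cd52 was 1.56 and 1.36 times higher. In the 21 and 11 cells with at least 3 UMIs of the cell cycle genes Mki67, Top2a, Birc5 and Cdk1, Cd63 was 0.266 and 0.202 times and Lyz2 0.495 and 0.352 times the level of the others. In the 1070 and 572 cells with at least 10 UMIs of the chemokines Ccl3 and Ccl4, Itgax was 1.69 and 1.63 times higher. For each of these ratios the 95% counting interval excluded 1. A count limit gives a range of cells and not a type, and takes deeper cells in all but the 11 cycling cells of the library labelled knockout, whose median was 3248 UMIs.

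**Figure D3:**
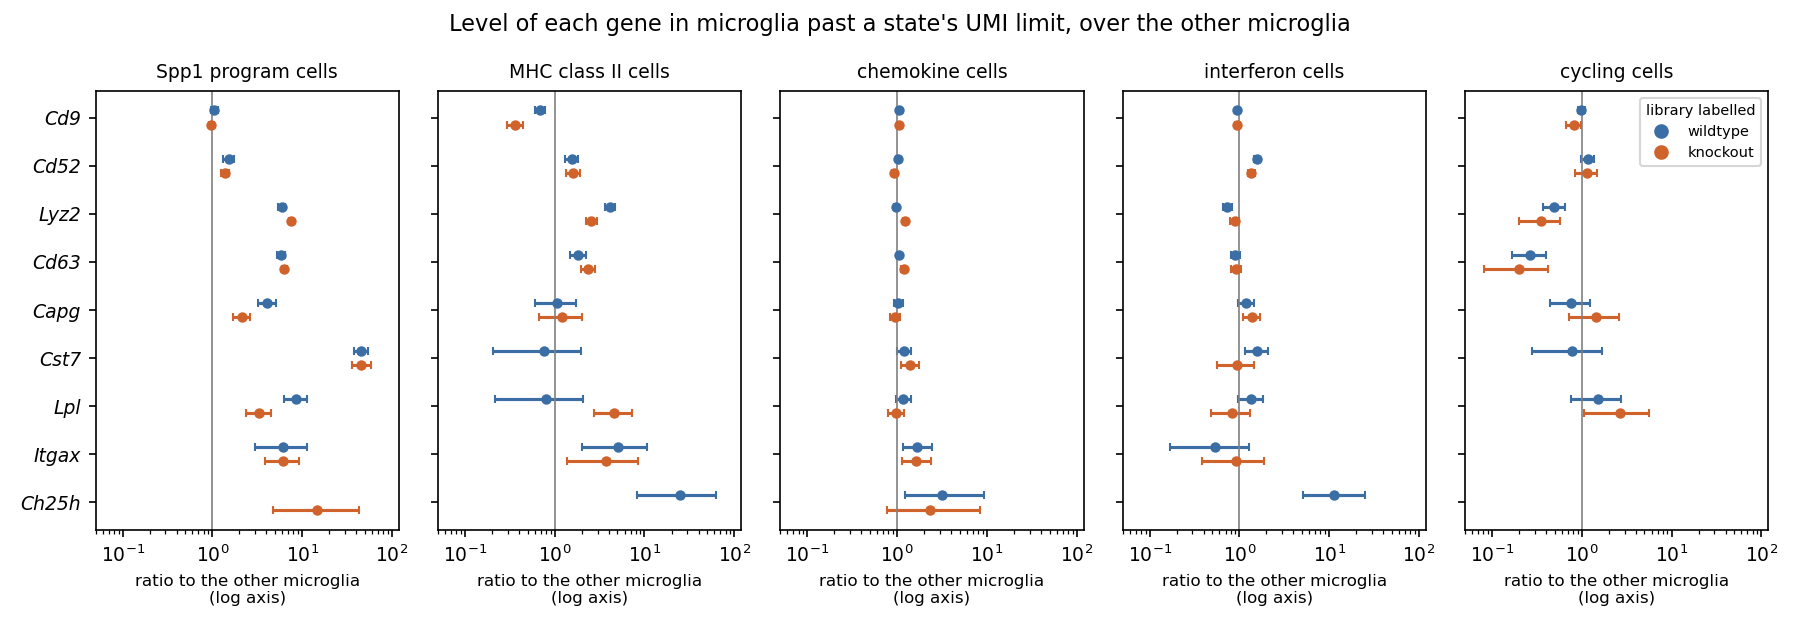
Ratio of each gene's CPM in microglia past a state's count limit to that in the other microglia (horizontal, log axis), with 95% counting intervals, for both libraries; ratios with 3 or fewer UMIs on a side are left out. Cst7 stands farthest to the right in Spp1-program cells, and Cd9 lies near 1 there and below 1 in MHC class II cells.

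Across single microglia the genes were weakly related. Likeness was ranked by the lower of the correlations in the 2 libraries. By that rule the gene most like Cst7 over thinned microglia was Fabp5, with a Pearson correlation of log counts of 0.325 over 1953 cells and 0.398 over 1183 cells. Among the 3 genes most like Cd9 were Cd81, another tetraspanin (0.226 and 0.298), and C1qa, a subunit of complement C1q (0.189 and 0.189). Cd63 was most like the protease gene Ctsd (0.223 and 0.291), Lyz2 like Apoe (0.227 and 0.346), and Cd52 like the interferon-induced Ifi27l2a (0.197 and 0.196). In single libraries other genes stood higher for Cd52, namely Ifitm3 in the library labelled wildtype (0.228) and Rpl41 in the library labelled knockout (0.221). For Lpl (Ccl12), Itgax (Wfdc17), Capg (Cd52) and Ch25h (Mrpl19) the correlations with the gene ranked first lay between 0.0716 and 0.122, and the highest with any of the 3 nearest was 0.152 (Ch25h with Cybb in the library labelled wildtype), which in sparse counts is no finding. The points are cells of 1 library each, and no test was made. Cst7 and Lpl UMIs fell together in 6 and 3 thinned microglia, where their shares alone would give 6.76 and 3.57.

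The classes were then compared, to ask which of the 9 genes mark microglia and which mark other macrophages and monocytes. UMIs were summed per class and library, and the 6 sums were fitted together with edgeR's quasi-likelihood test, with the library as a block. The 2 libraries carry different genotype labels, and nothing says that they are replicates. With the library as a block, the p-values measure only how far the differences between classes varied between these 2 libraries. That spread is pooled over the 6 sums and shared in part across genes. Of the 9 genes, 8 passed the minimum mean of 20 CPM, and Ch25h did not. In whole classes, fewer cells expressing a gene and less RNA per cell cannot be told apart.

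Lyz2 and Cd63 were higher in border macrophages than in microglia, and Cd9 and Capg lower. Of all 5765 genes tested, 3.61% were higher and 2.29% lower at an adjusted p under 0.05, against 2 and 2 of the 8 members. With library totals in place of TMM scaling, 197 genes were higher and 287 lower, against 208 and 132, and DESeq2 gave 169 and 43. Lyz2 stood at 11119 and 9198 CPM in border macrophages and 711 and 935 CPM in microglia, a log2 difference of 3.80 ± 0.33 (SE, edgeR adjusted p = 2.33e-10), and both border sums lay above both microglial sums. Cd63 stood at 1250.0 and 1621 CPM against 583 and 714 CPM, a log2 difference of 1.32 ± 0.31 (adjusted p = 0.00451). Under DESeq2 the adjusted p of Cd63 was 0.417, the highest of 12 alternatives that ran from 1.19e-05.

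Cd9 stood at 511 and 982 CPM in border macrophages against 3244 and 3128 CPM in microglia, a log2 difference of -2.01 ± 0.31 (adjusted p = 1.82e-05). Capg had 0 UMIs in the border macrophages of both libraries, which is at least 4.64-fold and 3.37-fold lower than in microglia (against 3 UMIs per library, adjusted p = 6.64e-05). Cd52 was level, at 957 and 919.8 CPM against 948 and 964 CPM, with a log2 difference of 0.15 ± 0.27 (adjusted p = 0.891). Cst7 had 1 UMI in each border sum, Lpl 2 and 5, and Itgax 0 and 1, too few to place them.

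The border gate decided several of these values. When Ms4a7 was added to its list, an alternative chosen after the data were seen, the class grew to 92 and 85 cells. Lyz2 (3.99), Cd63 (1.99) and Cd9 (-1.48) kept their log2 direction and their calls. Capg then stood at 127 and 209 CPM and no longer passed the test (log2 0.33, adjusted p = 0.274, the highest of 12 alternatives from 6.64e-08). Cst7 (1.48), Lpl (1.33) and Itgax (1.19) then had positive log2 differences that passed the test, with adjusted p of 0.0275, 0.000431 and 0.0286. For Cst7 the libraries went opposite ways: it was lower than in microglia in the library labelled wildtype (30.02 against 53.1 CPM, a ratio of 0.566, 0.299 to 0.976) and higher in the library labelled knockout (156 against 26.7 CPM, 5.86, 4.39 to 7.76). The ratio of Itgax was 2.86 (1.62 to 4.76) and 1.33 (0.669 to 2.42), and that of Lpl 1.88 (1.32 to 2.63) and 2.44 (1.82 to 3.21). Over 8, 12 and 10 alternatives their adjusted p otherwise reached 0.785, 1.00 and 0.974. Of the 92 and 85 cells, 9 and 12 passed the Spp1 limit. In the library labelled wildtype 30 of the 38 Lpl UMIs and 22 of the 55 Capg UMIs were in 1 cell each.

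Ch25h was richer in these macrophages than in microglia. The narrow border gate held 0 UMIs in the library labelled wildtype and 7 UMIs in 3 of 15 cells (109 CPM, 43.9 to 225) in the library labelled knockout. With Ms4a7 added, Ch25h stood at 46.2 and 82.4 CPM in border macrophages and at 2.72 and 1.95 CPM in microglia, 17.0 (8.98 to 31.6) and 42.2 (21.6 to 88.5) times higher. Cells of that gate held 41.7% and 68.4% of all Ch25h UMIs of their library. The gene was too low for the test, so these are counting intervals only.

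Monocytes differed from microglia in 7 of the 8 genes, 4 higher and 3 lower, where 14.3% of all genes were higher and 15% lower. Lyz2 stood at 26283 and 17779 CPM in monocytes, a log2 difference of 4.70 ± 0.35 from microglia (adjusted p = 5.99e-13). Cd52 stood at 3392 and 2373 CPM, a log2 difference of 1.55 ± 0.26 (adjusted p = 1.26e-05). Itgax stood at 55.6 and 61.6 CPM, from 3 and 16 UMIs, against 14.3 and 20.8 CPM in microglia, a log2 difference of 1.69 ± 0.55 (adjusted p = 0.0182). All 3 were higher in both monocyte sums than in both microglial sums. The call of Itgax was lost with a gate of 5 UMIs (adjusted p = 0.169) and with DESeq2 (0.107), over 10 alternatives from 0.00418 to 0.169.

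Cst7, Cd9 and Cd63 were lower in monocytes than in microglia. Cst7 had 0 and 1 UMIs there, and its log2 difference was -3.95 ± 0.96 (adjusted p = 0.00171). In the library labelled knockout the ratio was 0.0752 (0.00190 to 0.422), and in the library labelled wildtype 0 UMIs left an interval up to 1.30, so a difference was not detectable at that depth. With Ms4a7 in the border list its adjusted p was 0.164, the highest of its alternatives, which ran from 0.000438. Cd9 stood at 371 and 744 CPM, a log2 difference of -2.50 ± 0.31 (adjusted p = 5.69e-08).

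Cd63 had 0 UMIs in the monocytes of the library labelled wildtype, at least 10.5-fold lower than in microglia, and 55 UMIs in the library labelled knockout (212 CPM, a ratio of 0.297, 0.223 to 0.387). The log2 difference was -2.16 ± 0.38 (adjusted p = 3.03e-05). Of the 55 UMIs, 54 were in 1 cell with 26939 UMIs in all. That cell held none of Plac8, Ccr2, Ly6c2 and Chil3 and entered the gate by 9 UMIs of S100a4, beside 104 UMIs of Trem2. The 36 other monocytes held 1 UMI of Cd63.

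Capg was higher in monocytes than in microglia, at 297 and 327 CPM against 151 and 157.5 CPM, a log2 difference of 1.06 ± 0.25 (adjusted p = 0.00121). The call rested on few cells. Without the Capg UMIs of the 1 cell of each class and library with most of them, the log2 difference was 0.17 (adjusted p = 0.692). That setting was chosen after the data were seen. Without the cells past the Spp1 limit, which were 7 of 10 and 25 of 37 monocytes, the log2 difference was -4.01 (adjusted p = 0.00112), with 0 and 1 UMIs left. Of the 4 genes of that limit, monocytes held 128 and 657 UMIs of Lgals3, 3 and 50 of Fabp5 and none of Spp1 and Gpnmb. In the library labelled knockout, the cell with 54 Cd63 UMIs held 332 of the 657 Lgals3 and 41 of the 50 Fabp5 UMIs. It also held 41 of the 85 Capg UMIs. Over 12 alternatives the adjusted p of Capg ran from 0.000116 to 0.692. Cd52 also lost its call without those cells (log2 0.66, adjusted p = 0.263, the highest of 12 from 3.83e-10). Lpl did not pass the test, at 130 and 38.5 CPM in monocytes from 7 and 10 UMIs (log2 0.14 ± 0.47, adjusted p = 0.859).

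Between monocytes and border macrophages, Cd63 was lower in monocytes (log2 -3.48 ± 0.40, adjusted p = 7.05e-08), and Cd52 (1.40 ± 0.28, adjusted p = 0.000542), Capg and Lyz2 were higher. That is 3 higher and 1 lower of 8, where 5.9% of all genes were higher and 6.96% lower. Capg was at least 9.09-fold and 7.001-fold higher (adjusted p = 7.75e-07), against 3 UMIs per library in border macrophages. Lyz2 was the only call near the limit, with a log2 difference of 0.90 ± 0.30 (adjusted p = 0.0442), and it was lost with DESeq2 (0.0630), without the library term (0.0523) and without the Spp1 cells (log2 -0.18, adjusted p = 0.907, the highest of 12 alternatives from 2.59e-06). Without the Spp1 cells the calls of Cd52 (adjusted p = 0.271) and Capg (0.591) were lost too, over 12 alternatives each from 2.17e-08 and 7.56e-13.

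**Figure D4:**
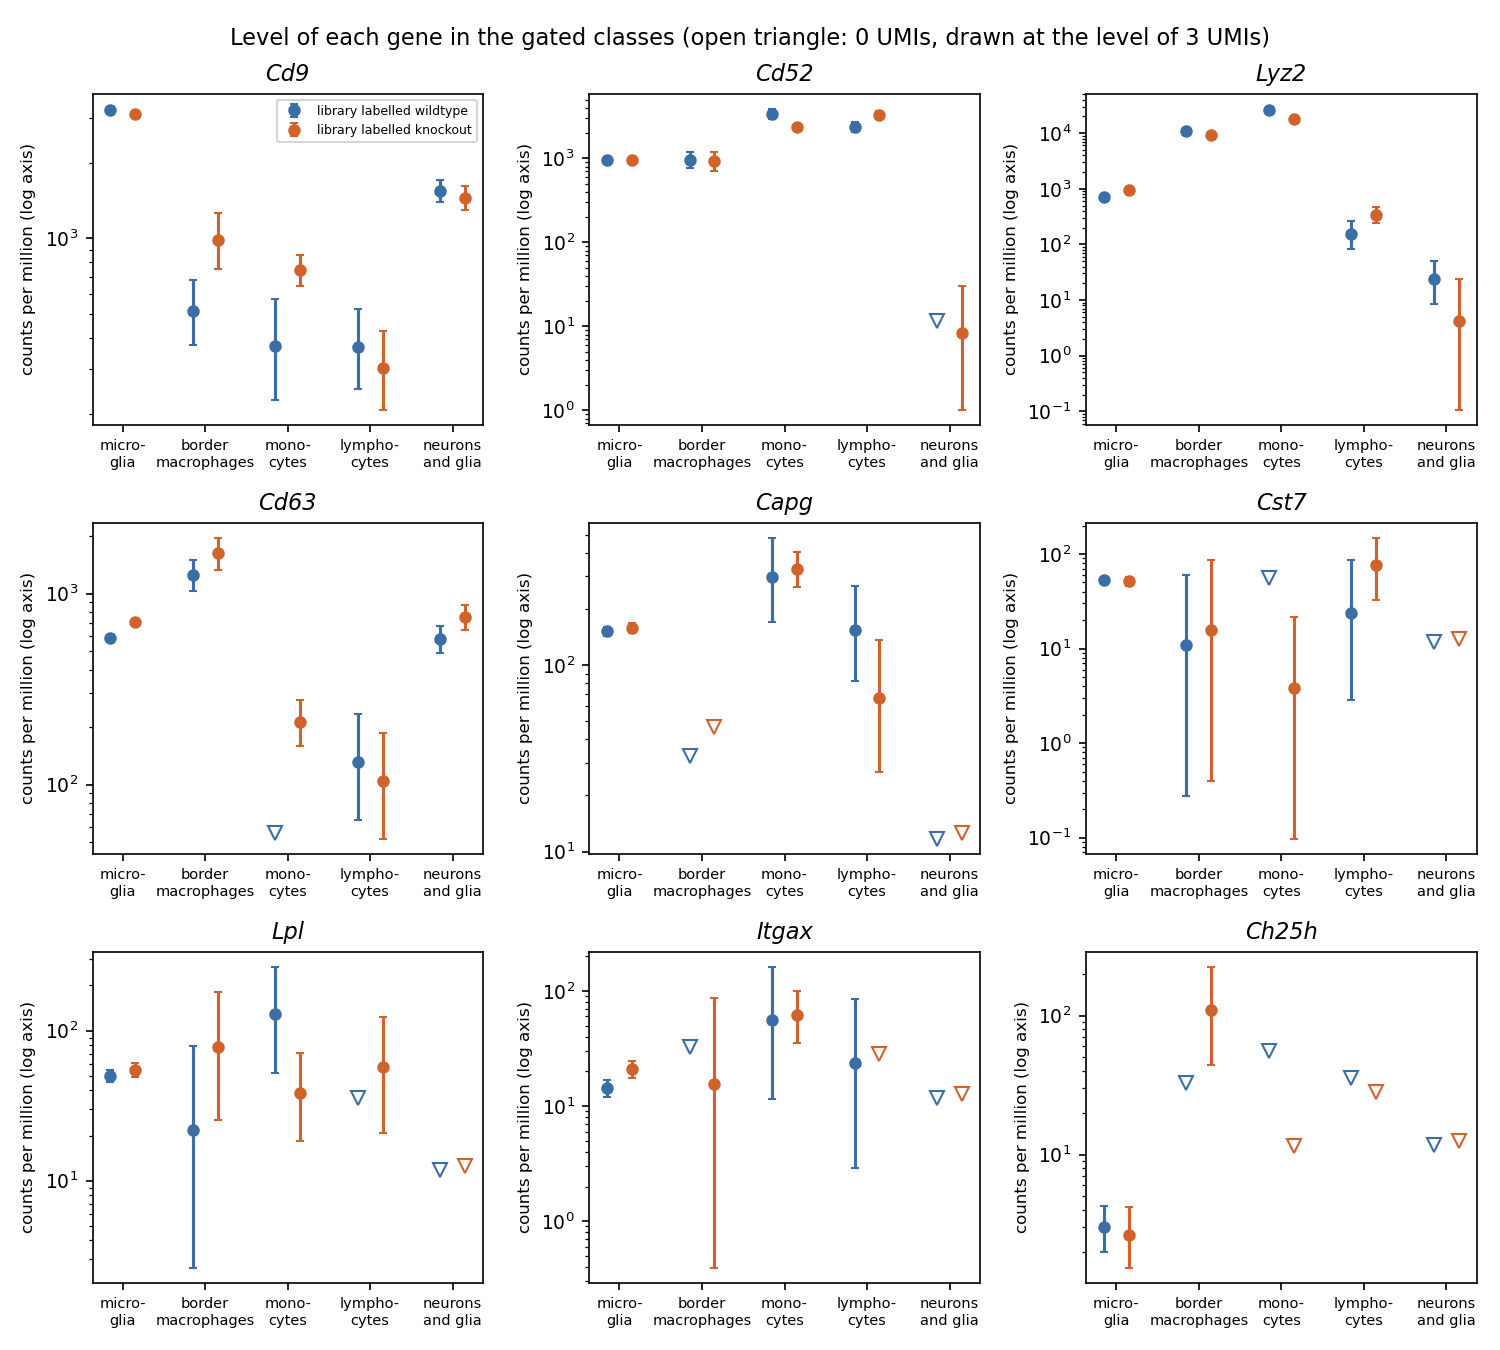
Level of each gene in CPM (vertical, log axis) in 5 gated classes of each library, with exact 95% Poisson intervals; an open triangle marks 0 UMIs and is drawn at the level of 3 UMIs. Cd9 stands highest in microglia, Cd63 in border macrophages and Lyz2 in monocytes, and Cst7, Lpl, Itgax, Capg and Ch25h have no UMI in retinal neurons and glia.

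The order of the classes thus differed from gene to gene. For Cd9 it was microglia, then neurons and glia, with border macrophages, monocytes and lymphocytes below 1000 CPM. For Lyz2 it was monocytes, border macrophages, microglia, and then lymphocytes at 154 and 341 CPM. Monocytes and lymphocytes, which had 2374 and 3315 CPM, shared the top place for Cd52, and their order differed between the libraries, while border macrophages and microglia did not differ beyond their spread. Lpl had too few UMIs outside microglia to order the 3 tested classes, with 7 and 10 in monocytes and 2 and 5 in border macrophages. Its ratio to microglia was 2.61 (1.04 to 5.42) and 0.701 (0.333 to 1.30) in monocytes. In border macrophages it was 0.437 (0.0528 to 1.59) and 1.42 (0.457 to 3.34).

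The rest of the disease-associated program was read from a list of 28 other genes. Between border macrophages and microglia 5 of 23 tested were higher and 2 lower, with a median log2 difference of -0.04, against -0.07 over all genes. The 3 largest were Apoe (5.33), Igf1 (4.51) and Lilrb4a (3.23), with adjusted p of 2.52e-11, 5.82e-05 and 0.000402. Between monocytes and microglia 4 were higher and 11 lower, with a median of -1.16 against -0.11. Between monocytes and border macrophages 3 were higher and 11 lower, with a median of -0.998 against -0.03. Of all genes tested, 3.61%, 14.3% and 5.9% were higher in these 3 comparisons, in that order, and 2.29%, 15% and 6.96% were lower. Of the 3 largest differences between monocytes and border macrophages, Lgals3 was 5.55 higher in monocytes (adjusted p = 1.51e-11), and Igf1 and Spp1 had lower fitted values, with adjusted p of 0.000490 and 0.0618. Serpine2 was lower in monocytes than in microglia (adjusted p = 4.89e-11), and Igf1 did not pass the test (0.201). Spp1 had a lower fitted value in monocytes (adjusted p = 0.000139). In the library labelled wildtype microglia held 6.20 CPM of it, below the 55.6 CPM that 3 UMIs make in its monocytes, so no difference was detectable there. In the library labelled knockout the 947 microglial Spp1 UMIs were in 22 of 1417 cells, with 283 in 1 cell.

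The library labelled knockout was then set against the library labelled wildtype. Each is 1 library, so there is no test, and the intervals cover counting error only. In microglia none of the 8 members at 20 CPM or more in a library differed by 1.5-fold, where 0.64% of 6249 genes passed 1.5-fold upward and 0.912% passed it downward. Itgax came nearest, with a ratio of 1.46 (1.14 to 1.86). The ratio was 1.32 (1.27 to 1.36) for Lyz2 and 1.22 (1.18 to 1.27) for Cd63, and it was 0.964 (0.947 to 0.981) for Cd9. For Cst7 (0.972, 0.844 to 1.12), Lpl (1.11, 0.961 to 1.27), Cd52 (1.02, 0.984 to 1.05), Capg (1.04, 0.961 to 1.13) and Ch25h (0.881, 0.454 to 1.66) the interval held 1.

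For Cst7 the ratio depended on which cells were counted. Without the cells past the Spp1 limit, Cst7 stood at 32.6 CPM in the library labelled wildtype and 16.9 CPM in the library labelled knockout, a ratio of 0.519 (0.411 to 0.650). With Ms4a7 in the border list, microglia numbered 2283 and 1382, and the ratio was 0.503 (0.419 to 0.601). Counting each cell equally, the log2 ratio was -0.27, against -0.04 for the sums. The Cst7 level of the library labelled knockout was thus lower outside the Spp1 cells. Inside them it stood at 771 CPM, against 1463 CPM in the library labelled wildtype. Without the top cell of each library the levels inside were 612 and 723 CPM. The Spp1 cells, 23 of 1417 microglia against 17 of 2304, held 68.5% of the Cst7 UMIs of the library labelled knockout, against 39.0%.

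The excess of Cd63 and Lyz2 also shrank under those gates. Without the Spp1 cells the ratios were 1.05 (1.01 to 1.098) for Cd63 and 1.08 (1.04 to 1.13) for Lyz2, and with Ms4a7 in the border list they were 1.06 (1.01 to 1.104) and 1.05 (1.01 to 1.096). Itgax kept a ratio of 1.27 (0.971 to 1.66) and 1.39 (1.07 to 1.80) under the same settings. The log2 ratio of Cd9 lay between -0.07 and -0.04 under the 9 alternatives run. Among the 28 other genes of the program, 6 of 22 passed 1.5-fold upward and 0 downward, and their median ratio was 0.08 on the log2 scale, against -0.04 over all genes. The largest were Spp1, at 6.20 and 147 CPM, Gpnmb, at 3.52 and 45.7 CPM, and Fabp5, at 24.9 and 151 CPM. In the library labelled knockout few microglia carried them: the 947 Spp1 UMIs were in 22 cells, with 283 in 1 cell, the 294 Gpnmb UMIs in 13 cells, and 397 of the 970 Fabp5 UMIs in 1 cell. Of the others among the 6, Lgals3 was also in few microglia, 1.69% and 2.19% without thinning, at 33.7 and 62.1 CPM. Apoe and Lgals3bp were in many. Apoe stood at 1931 and 4772 CPM, in 24.0% and 40.9% of microglia without thinning. Lgals3bp stood at 195 and 306 CPM, in 42.6% and 55.9%.

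In the small classes the ratios were less certain. In border macrophages, where 21.7% of 2203 genes passed 1.5-fold upward and 20.4% downward, Cd9 was 1 of 4 members past that size, with a ratio of 1.92 (1.30 to 2.87), and Lyz2 had a ratio of 0.827 (0.746 to 0.916). In monocytes, where 10.3% of 4132 genes were higher and 25% lower, Cd9 (2.01, 1.26 to 3.36) and Cd63 (0 against 55 UMIs) were higher and Lpl (0.297, 0.102 to 0.919, from 7 and 10 UMIs) lower, of 7 members. The cell with 54 Cd63 UMIs also held 79 of the 193 Cd9 UMIs, and the 36 other monocytes of the library labelled knockout stood at 490 CPM of Cd9, against 371 CPM in the library labelled wildtype. Lyz2 (0.676, 0.637 to 0.718) and Cd52 (0.700, 0.592 to 0.830) were lower by less than 1.5-fold. The ratio of Cd9 in monocytes was 1.08 (0.509 to 2.65) without the Spp1 cells, which left 3 and 12 monocytes with 8 and 49 Cd9 UMIs. Among the 28 other genes, 0 of 18 were higher and 4 lower in border macrophages, with Ccl6 (10 and 2 UMIs), Ctsl (46 and 15) and Lilrb4a (11 and 4) as the largest differences, and 8 of 17 were higher and 2 lower in monocytes. In monocytes the largest were Trem2, Ctsd and Timp2, with ratios of 8.80, 5.28 and 5.20, and 104 of the 127 Trem2 UMIs were in the 1 cell that also held the Cd63 UMIs.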

How the data were processed

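Single-cell 3′ RNA libraries (10x Chromium, per the labels' protocols) from CD45-sorted mouse retina were analysed, 1 per genotype label. The deposited values are raw counts of UMIs per gene and barcode, with no normalization; the authors' tools were Cell Ranger 3.1 and mm10, per the submitters' processing notes. Barcodes with at least 500 UMIs, 250 genes and at most 15% mitochondrial counts were kept (40 and 24 removed). No doublet caller was run, so doublets may remain. CPM are sums over a class per 1000000 UMIs. Classes were compared with edgeR 4.0.16 (R 4.3.3; TMM, mean of at least 20 CPM, Benjamini-Hochberg over 5765 genes without gate genes, 2 residual degrees of freedom), and with DESeq2 1.42.0 as an alternative. Intervals are 95% exact Poisson, binomial or split-of-counts intervals and cover counting error only. Ratios between libraries were counted at 1.5-fold or more, for genes with 20 CPM in 1 library and, a rule added after the data were seen, 10 UMIs over both. Per-cell Pearson correlations used thinned log counts of genes at 20 CPM or more in both libraries. The fits were tested on simulated data. Named genes were the 10 members, Igfbpl1, the 3 largest differences of the other 28 program genes in each comparison, and the genes most like each member among its 3 nearest, of which some are not reported here; genes named beyond these were chosen after their values were seen. The 28 were Apoe, Trem2, Tyrobp, Ctsb, Ctsd, Ctsl, Ctsz, Axl, Csf1, Cd68, Timp2, Hif1a, Ccl6, Cadm1, Ank, Serpine2, Igf1, Gpnmb, Fabp5, Spp1, Lgals3, Lgals3bp, Vim, Lilrb4a, Fth1, B2m, Gusb and Hpse. Members and lists were chosen with earlier results of these data known. Alternatives varied the gates, cell filters, scaling, test, minimum level, thinning and single libraries or cells.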

Additional observations from a re-analysis of the deposited data

Results flagged for a closer look

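Cd9 and Lyz2 differed between the libraries in opposite directions in different classes, with 95% counting intervals that excluded 1; the difference between classes was not tested. The ratio of the library labelled knockout to the library labelled wildtype was 0.964 for Cd9 in microglia, 1.92 in border macrophages and 2.01 in monocytes. For Lyz2 it was 1.32 in microglia, 0.827 in border macrophages and 0.676 in monocytes. With Ms4a7 in the border list the log2 ratio of Lyz2 in border macrophages was 0.09, against -0.27, so its direction there followed the gate. Leaving out the Spp1 cells left 3 and 12 monocytes, and the log2 ratio of Cd9 in them was 0.12, against 1.00. A further setting removed, in each library, the gene's UMIs in the cell with most of them and kept the totals. The log2 ratio of Cd9 was then -0.06 in microglia, 0.75 in border macrophages and 0.98 in monocytes, and that of Lyz2 was 0.34, -0.48 and -0.34. Leaving out the whole monocyte with 54 Cd63 UMIs, which held 79 of 193 Cd9 UMIs, changed Cd9 more. The 36 other monocytes of the library labelled knockout stood at 490 CPM, against 371 CPM in the library labelled wildtype. With each cell counted equally the log2 ratios were -0.07, 0.57 and 0.60 for Cd9 and 0.19, -0.13 and -0.46 for Lyz2. Without the top cell's UMIs of the gene and with each cell counted equally, the signs were thus those of the main values, with 1 library per label. With Ms4a7 in the border list, the sign of Lyz2 in border macrophages was not.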

How the results depend on the processing

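Of 486 alternative values for single members, 451 kept their sign and 35 changed it. Of the 35, 15 are ratios between the libraries, which have no test, 14 are class differences that passed the test in neither setting, and 6 concern values that passed the test in one of the settings. With Ms4a7 in the border list, Cst7 (1.48), Lpl (1.33), Itgax (1.19) and Capg (0.33) turned on the log2 scale in border macrophages against microglia, although Cst7 and Capg still had ratios of 0.566 and 0.851 in the library labelled wildtype; without the Spp1 cells Capg turned in monocytes against microglia (-4.01) and Lyz2 in monocytes against border macrophages (-0.18). Adding Ms4a7 changed the number of genes called from 340 to 1172 in border macrophages against microglia, from 741 to 1429 in monocytes against border macrophages and from 927 to 1902 between the libraries in border macrophages. Leaving out the Spp1 cells changed it from 1693 to 1016 in monocytes against microglia, from 741 to 403 in monocytes against border macrophages and from 1459 to 491 between the libraries in monocytes. DESeq2 called 212 genes in border macrophages against microglia and 997 in monocytes against microglia, and 42 microglial genes passed 1.5-fold at 50 CPM, against 97. After thinning to 1000 UMIs, or with limits of 60% and 5%, 2 members were constitutive, Cd9 and Cd52, and not 4. Without thinning, or with limits of 60% and 5%, 3 members were restricted, Cst7, Itgax and Ch25h, and not 4. Apart from what each setting leaves out, the cause was not tested. With library totals the median gene moved from -0.07 to -0.27 in border macrophages against microglia and from -0.03 to 0.12 in monocytes against border macrophages. No paired analysis was possible because each genotype label has 1 library; classes were blocked by library, and without that term the only member call lost was that of Lyz2 in monocytes against border macrophages. The settings with Ms4a7, and those without the top cell's UMIs of a gene in comparisons of classes, were chosen after seeing the data. With 22 and 15 border macrophages and 10 and 37 monocytes, depth limits Cst7, Lpl, Itgax and Ch25h there.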

Other observations

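Lymphocytes of the sorted retina, gated on Cd3d, Cd3e, Cd3g, Trbc2, Nkg7, Cd79a and Ms4a1, numbered 20 and 23. Cst7, which cytotoxic lymphocytes also express, had 2 UMIs (23.7 CPM, 2.88 to 85.8) and 8 UMIs in 7 cells (75.8 CPM, 32.7 to 149) in them, and both intervals held the microglial level. Capg had 13 and 7 UMIs and Cd63 11 and 11 UMIs.

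Cells that passed no gate, 278 and 223 in number, were shallow, with a median of 1551.5 and 2005 UMIs. They held 39.6% and 57.9% of all Ch25h UMIs and 30.4% and 27.8% of all Lyz2 UMIs. At least 3 UMIs of Ms4a7 were found in 61 and 55 of them.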
